A study of Homo sapiens with 18 samples.

Results

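The BCL2 family of apoptosis regulators was followed here through 10 genes: BCL2, BCL2L1 and MCL1, which restrain apoptosis, and BAX, BAK1, BID, BAD, BBC3, PMAIP1 and BCL2L11, which promote it. Members were taken by gene symbol from a table of 62754 genes, and all 10 were present and passed the filter on low counts. The data were RNA sequencing counts of EA.hy926 cells, a human endothelial line made by fusing umbilical vein endothelial cells with A549 lung carcinoma cells. There were 6 conditions with 3 libraries each, all from 1 cell line. The study calls them biological replicates, and since the sample labels do not say that the cultures were separate, the p-values measure the spread between these libraries. Mock cells received the Lipofectamine transfection reagent without siRNA, siNT cells received 10 nM non-targeting siRNA, and siELMO1 cells received 10 nM of a pool of 3 siRNAs against ELMO1. All cells were starved in low serum overnight and were lysed either before poly(I:C), at 0 h, or after 24 h with 1 μg/ml poly(I:C), a synthetic double-stranded RNA that stimulates TLR3. Each comparison asked how the balance of anti-apoptotic and pro-apoptotic transcripts differed with ELMO1 knockdown, with control siRNA or with TLR3 stimulation. No group was kept for 24 h without poly(I:C). The change from 0 h to 24 h, called the response to poly(I:C) below, therefore also spans 24 h more after transfection. Poly(I:C) and this added time cannot be told apart.

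Proteins of this family decide whether the outer mitochondrial membrane stays intact. The effectors BAX and BAK1 can assemble into pores that release cytochrome c, BCL2, BCL2L1 (BCL-XL) and MCL1 hold them in check, and the BH3-only proteins BID, BAD, BBC3 (PUMA), PMAIP1 (NOXA) and BCL2L11 (BIM) either occupy the anti-apoptotic proteins or engage the effectors. Endothelial cells are known to rely on MCL1 and BCL-XL for survival, and TLR3 and interferon signalling are known inducers of PMAIP1.

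What the members share at the sequence level is the BH3 motif, the short helix through which pro-apoptotic members bind the groove of anti-apoptotic ones. Its coding DNA is shown for all 10 members because the contacts between them run through it. Each stretch below is 42 bases of the GRCh38 reference read 5′ to 3′ on the coding strand, and the 18 capitals mark 6 codons that run from a leucine, over any 3 residues and a glycine, alanine or serine, to an aspartate.
BCL2, chr18:63318349-63318390, minus strand: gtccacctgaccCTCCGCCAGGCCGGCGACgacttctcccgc
BCL2L1, chr20:31721922-31721963, minus strand: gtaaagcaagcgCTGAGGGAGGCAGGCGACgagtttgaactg
MCL1, chr1:150578865-150578906, minus strand: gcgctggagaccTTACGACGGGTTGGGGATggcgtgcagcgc
BAX, chr19:48955775-48955816, plus strand: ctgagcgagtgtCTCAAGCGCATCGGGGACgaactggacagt
BAK1, chr6:33575387-33575428, minus strand: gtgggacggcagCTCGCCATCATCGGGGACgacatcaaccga
BID, chr22:17739415-17739456, minus strand: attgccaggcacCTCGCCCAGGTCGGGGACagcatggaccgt
BAD, chr11:64271622-64271663, minus strand: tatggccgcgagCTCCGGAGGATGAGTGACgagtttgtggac
BBC3, chr19:47226579-47226620, minus strand: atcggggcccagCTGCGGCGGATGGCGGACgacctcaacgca
PMAIP1, chr18:59902661-59902702, plus strand: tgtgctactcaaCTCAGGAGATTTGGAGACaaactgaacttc
BCL2L11, chr2:111150091-111150132, plus strand: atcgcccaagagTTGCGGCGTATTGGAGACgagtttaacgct
Every stretch lay within 1 coding exon of the MANE Select transcript. The core began at residue 97 in BCL2, 90 in BCL2L1, 213 in MCL1, 63 in BAX, 78 in BAK1, 114 in BAD, 141 in BBC3, 29 in PMAIP1 and 152 in BCL2L11. BID held a match at residues 25 and 90, of which the latter is shown. PMAIP1 encodes the shortest protein of the set, with 54 residues, and MCL1 the longest, with 350. The residue pattern is loose, since 35.4% of 19061 MANE Select coding transcripts held a match, so it describes the members and does not identify them.

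The libraries held 40.4 to 73.9 M estimated counts each (M for mega), so that 3 counts corresponded to 0.0406 to 0.0743 CPM, the count scaled to 1 M counts per library. ELMO1, the targeted gene, stood at 0.299, 0.301 and 0.419 CPM in the siELMO1 libraries at 0 h, against 2.66 to 3.32 CPM in siNT and 2.98 to 3.04 CPM in Mock, and stayed below every control library at 24 h. Of 12 endothelial marker genes 11 reached 1 CPM, whereas CLDN5 stayed between 0 and 0.210 CPM. Of 6 epithelial markers 4 reached 1 CPM, CDH1 had 0 counts in all libraries, and the summed level of 5 fibroblast markers stayed at or below 1.86 CPM. Of 4 leukocyte markers only CD68 reached 1 CPM. The summed endothelial level was 3087 to 3311 CPM in siELMO1 at 0 h against 2326 to 2416 CPM with siNT, and 2829 to 3431 CPM against 2069 to 2317 CPM at 24 h. The summed epithelial level was 2100 to 2224 CPM in siELMO1, 1879 to 1911 CPM in siNT and 1516 to 1538 CPM in Mock at 0 h, and 1098 to 1314, 1010 to 1056 and 842 to 861 CPM at 24 h. The summed leukocyte level, nearly all CD68, lay at 52.5 to 75.4 CPM in Mock, 32.4 to 36.9 CPM in siNT and 64.6 to 96.9 CPM in siELMO1 at 0 h, and at 217 to 282, 137 to 177 and 194 to 235 CPM at 24 h. The part of these shifts in the comparisons was not tested. The first siELMO1 replicate at 0 h stood apart: its mean absolute deviation from its group was 0.12 on the log2 scale against 0.048 to 0.086 in the other libraries, and mitochondrial genes took 1.86% of its counts against 4.02% and 3.95% in the other two. On that measure the other two stood apart from the series, since the remaining 15 libraries ran from 1.31% to 2.42%, and they also had the smallest totals, 40.4 and 51.0 M. Results that rest on it are given with and without it. In these bulk libraries, a smaller share of cells that express a gene and less of its RNA per cell cannot be told apart.

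Levels of different genes were compared only per length, as TPM, the share of all transcripts scaled to 1 M. BAX led with a mean of 281 TPM over the 18 libraries, followed by MCL1 with 257, PMAIP1 with 228 and BCL2L1 with 184 TPM. The order differed by time, and BAX had the highest group mean only at 0 h. At 24 h MCL1 averaged 320, 360 and 317 TPM in Mock, siNT and siELMO1, against 299, 280 and 261 TPM for BAX. PMAIP1 averaged 65.7, 53.8 and 31.8 TPM at 0 h and led in Mock at 24 h with 691 TPM. BBC3 averaged 57.4, BAD 42.3, BAK1 35.9 and BID 30.9 TPM. BCL2L11 averaged 6.43 TPM and BCL2 was the lowest at 0.521 TPM. The libraries of most neighbours in this order overlapped, with BCL2L11 and BCL2 as the exceptions, since the highest BCL2L11 library (9.96 TPM) lay below the lowest BID library (21.9 TPM) and the highest BCL2 library (0.969 TPM) lay below the lowest BCL2L11 library (3.91 TPM). BCL2, the founding member of the family, was thus the scarcest of the 10.

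**Figure D1:**
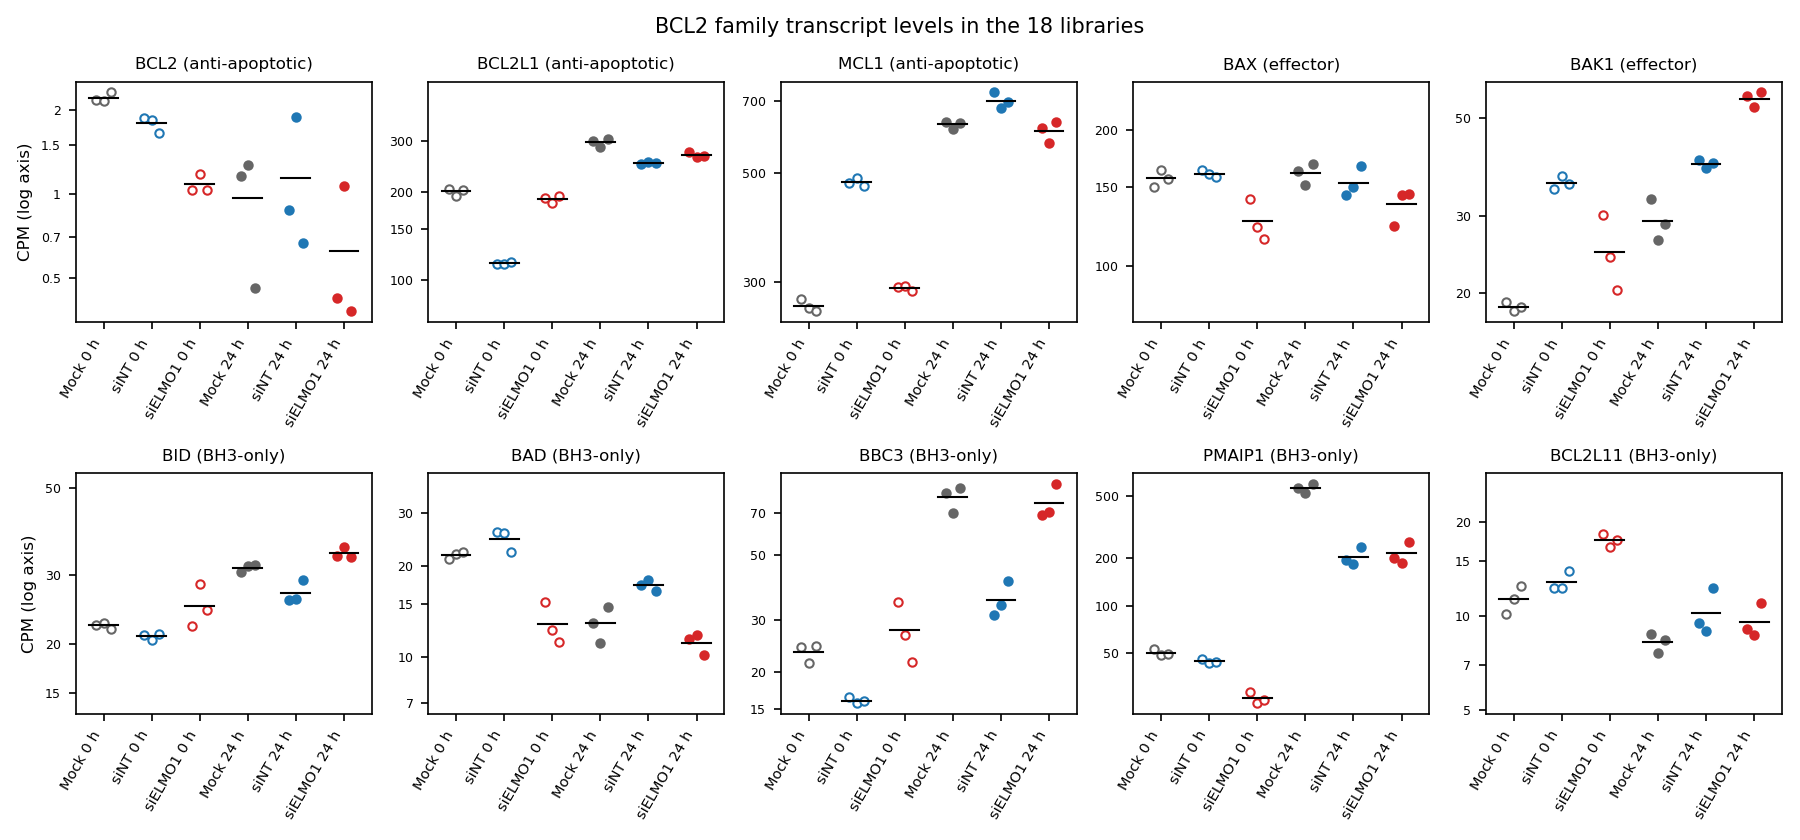
CPM on log axes for the 10 members in the 18 libraries, with 1 panel per gene, open points for 0 h, filled points for 24 h, and a black line at each group mean of 3 libraries. PMAIP1 rose from between 23.8 and 53.0 CPM at 0 h to between 184 and 599 CPM at 24 h, while BAX stayed between 114 and 168 CPM throughout.

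Of the anti-apoptotic genes, MCL1, whose protein is short-lived and sequesters PMAIP1 and BCL2L11, was measured at 277, 266 and 261 CPM in Mock at 0 h, 477, 490 and 471 CPM with siNT, and 293, 294 and 287 CPM in siELMO1. At 24 h it stood at 637, 614 and 634 CPM in Mock, 730, 677 and 698 CPM with siNT, and 617, 576 and 636 CPM in siELMO1. The siNT libraries were the highest at each time, all 9 libraries at 24 h lay above all 9 at 0 h, and Mock and siELMO1 overlapped at 24 h but not at 0 h.

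BCL2L1, which encodes the long-lived inhibitor BCL-XL, was measured at 205, 195 and 204 CPM in Mock at 0 h, 114, 113 and 115 CPM with siNT, and 191, 184 and 195 CPM in siELMO1. At 24 h the values were 300, 286 and 303 CPM in Mock, 249, 253 and 251 CPM with siNT, and 275, 264 and 266 CPM in siELMO1. In contrast to MCL1, the siNT libraries were the lowest at each time and clear of both other groups.

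BCL2 itself was at 2.17, 2.15 and 2.31 CPM in Mock, 1.88, 1.84 and 1.66 CPM with siNT, and 1.03, 1.18 and 1.04 CPM in siELMO1 at 0 h, in 3 groups that did not overlap. At 24 h the replicates spread widely, with 1.16, 1.27 and 0.462 CPM in Mock, 0.878, 1.89 and 0.664 CPM with siNT, and 0.424, 1.07 and 0.379 CPM in siELMO1. All 3 groups overlapped at that time.

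The effector BAX was close to flat. At 0 h its Mock libraries spanned 150 to 163 CPM and its siNT libraries 157 to 163 CPM, against 141, 122 and 114 CPM in siELMO1, whose highest value came from the replicate that stood apart. At 24 h the ranges were 151 to 168 CPM in Mock, 143 to 166 CPM in siNT and 122 to 145 CPM in siELMO1. The siELMO1 libraries thus lay below both control groups at 0 h, and below Mock but not clear of siNT at 24 h.

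BAK1, the second effector, moved much more. It was measured at 19.1, 18.2 and 18.7 CPM in Mock, 34.4, 36.8 and 35.3 CPM with siNT, and 30.1, 24.2 and 20.4 CPM in siELMO1 at 0 h. At 24 h it reached 32.7, 26.4 and 28.7 CPM in Mock, 40.1, 38.5 and 39.5 CPM with siNT, and 56.1, 52.8 and 57.1 CPM in siELMO1. Before poly(I:C) siNT was highest, after it siELMO1 was highest, and the 3 groups did not overlap at either time.

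Among the BH3-only genes, PMAIP1, whose product binds MCL1 above all, had the widest range. Its values were 53.0, 48.0 and 48.9 CPM in Mock, 45.7, 42.7 and 43.8 CPM with siNT, and 27.8, 23.8 and 24.7 CPM in siELMO1 at 0 h. After 24 h they were 566, 522 and 599 CPM in Mock, 196, 184 and 235 CPM with siNT, and 201, 188 and 256 CPM in siELMO1. The siELMO1 libraries were the lowest before poly(I:C), whereas afterwards siELMO1 and siNT overlapped and both lay far below Mock.

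BBC3, a strong binder of all anti-apoptotic members, showed another pattern, with 24.3, 21.6 and 24.6 CPM in Mock, 16.4, 15.7 and 15.9 CPM with siNT, and 34.8, 26.8 and 21.6 CPM in siELMO1 at 0 h. At 24 h it was at 81.7, 69.7 and 85.2 CPM in Mock, 31.2, 33.9 and 40.8 CPM with siNT, and 68.5, 70.4 and 87.6 CPM in siELMO1. The siNT libraries were the lowest at each time without overlap, and Mock and siELMO1 overlapped at each time.

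The remaining BH3-only genes varied less. BID, which links caspase-8 to mitochondria once cleaved, ran from 20.4 to 28.4 CPM at 0 h and from 25.9 to 35.3 CPM at 24 h. BAD, whose binding to BCL2 and BCL-XL is blocked by its phosphorylation, ran from 21.1 to 26.0 CPM in Mock and siNT at 0 h but was at 15.2, 12.3 and 11.2 CPM in siELMO1. After poly(I:C) BAD was at 11.1 to 14.6 CPM in Mock, 16.6 to 18.0 CPM in siNT and 10.2 to 11.8 CPM in siELMO1, so siNT stood alone. BCL2L11, a broad-spectrum BH3-only gene, was at 10.2 to 12.5 CPM in Mock, 12.3 to 14.0 CPM in siNT and 16.7 to 18.4 CPM in siELMO1 at 0 h, and at 7.63 to 12.3 CPM over all 9 libraries at 24 h. Before poly(I:C) siELMO1 was the only one of these groups that was clear of both others for BCL2L11.

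The largest responses to poly(I:C) were those of the BH3-only genes PMAIP1 and BBC3, although in siNT BCL2L1 rose about as much as BBC3. The BH3-only members as a class did not lead. Their median log2 fold change was 0.49, 0.37 and 0.45 in Mock, siNT and siELMO1, below the 0.56, 0.55 and 0.50 of the anti-apoptotic members. PMAIP1 rose 11.3-fold in Mock (log2 fold change 3.49 ± 0.11, SE), 4.66-fold in siNT (2.22 ± 0.11) and 8.43-fold in siELMO1 (3.08 ± 0.11), with adjusted p of 2e-14, 1.3e-11 and 1.6e-13 in edgeR's quasi-likelihood test with Benjamini-Hochberg adjustment over 15167 genes. BBC3 rose 3.36-fold in Mock, 2.21-fold in siNT and 2.71-fold in siELMO1 (edgeR adjusted p = 7.2e-09, 2.8e-06 and 1.2e-07). Both anti-apoptotic genes of high level rose as well, MCL1 by 2.34-fold, 1.46-fold and 2.09-fold and BCL2L1 by 1.47-fold, 2.20-fold and 1.41-fold in Mock, siNT and siELMO1.

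**Figure D2:**
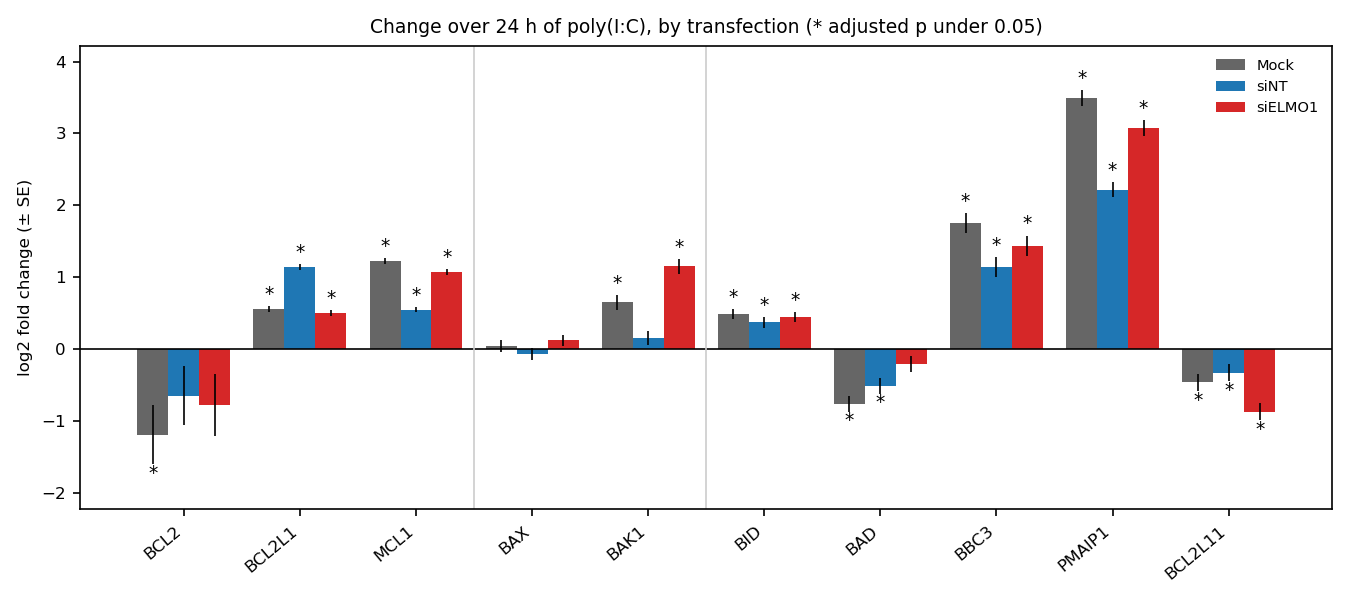
Log2 fold change from 0 h to 24 h of poly(I:C) for the 10 members in Mock, siNT and siELMO1. Error bars are 1 SE, derived from the F statistic of edgeR, and stars mark an adjusted p under 0.05. PMAIP1 has the tallest bars (3.49, 2.22 and 3.08), MCL1 and BCL2L1 are above 0 in all 3 transfections, and BAD and BCL2L11 are below 0.

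BAK1 rose 1.57-fold in Mock and 2.22-fold in siELMO1 (edgeR adjusted p = 2.6e-05 and 2.7e-08), but in siNT its change of 1.11-fold did not pass the test (adjusted p = 0.22, 95% interval of the log2 fold change -0.05 to 0.34). BID rose in each transfection, by 1.40-fold, 1.29-fold and 1.36-fold. The BAX change passed the test in none, with log2 fold changes of 0.04, -0.07 and 0.12 and intervals that together ran from -0.22 to 0.27. Without the siELMO1 replicate that stood apart, or without the first siELMO1 replicate at 24 h, the BAX change in siELMO1 was called, at 0.21 (adjusted p = 0.023) and 0.20 (adjusted p = 0.049).

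Going down were BAD, BCL2L11 and BCL2. BAD fell by 0.76 in Mock and by 0.51 in siNT on the log2 scale, and its value of -0.21 in siELMO1 was not called (edgeR adjusted p = 0.11). That value was called without the third siELMO1 replicate at 0 h (-0.31, adjusted p = 0.031) and was -0.07 without the replicate that stood apart. BCL2L11 fell by 0.46, by 0.33 and by 0.87 on the log2 scale in Mock, siNT and siELMO1, and the call in siNT was lost without the third siNT replicate at 0 h or without the first or the second at 24 h (adjusted p = 0.11, 0.10 and 0.13). BCL2 fell by 1.19 ± 0.41 on the log2 scale in Mock (adjusted p = 0.019), a call that was lost without the third Mock replicate at 24 h (-0.86, adjusted p = 0.09), and its values of -0.65 in siNT and -0.78 in siELMO1 were not called. Both were called, at -1.22 and -1.42, without the second 24 h replicate of the respective group (adjusted p = 0.025 and 0.014).

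In Mock 6 of 10 members were higher and 3 lower after poly(I:C), where 30.7% of all genes tested were higher and 29.6% lower. In siNT 5 were higher and 2 lower, against 28.6% and 25.2% of all genes. In siELMO1 6 were higher and 1 lower, against 28% and 26.9% of all genes. Split by role, 2 of 3 anti-apoptotic members rose in each transfection, and 4, 3 and 4 of 7 pro-apoptotic members rose in Mock, siNT and siELMO1. The median log2 fold change was 0.56, 0.55 and 0.50 over the anti-apoptotic members and 0.49, 0.15 and 0.45 over the pro-apoptotic ones, beside 0.01, 0.01 and 0.00 over all genes tested.

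Because the responses of PMAIP1 and BBC3 were the largest of the set, their promoters are shown, from 250 bases before to 50 bases after the annotated start (RefSeq, GRCh38.p14). Capitals mark matches, on either strand, to the letters GAAANNGAAA, named ISRE after the interferon-stimulated response element, TTCNNNGAA, named GAS after the interferon-gamma activated site, and TGACGTCA, named CRE after the cyclic AMP response element. They also mark the CCAAT box, whose letters are its name, the GC box with the letters GGGCGG, and the motif of NF-kB.
PMAIP1, chr18:59899746-59900045, plus strand: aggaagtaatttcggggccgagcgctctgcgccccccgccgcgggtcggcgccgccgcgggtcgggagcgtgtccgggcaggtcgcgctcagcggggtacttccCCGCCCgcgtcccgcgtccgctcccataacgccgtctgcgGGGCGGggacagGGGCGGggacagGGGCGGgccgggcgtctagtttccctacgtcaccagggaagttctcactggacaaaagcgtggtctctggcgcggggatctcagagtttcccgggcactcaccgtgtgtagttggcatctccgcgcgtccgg
BBC3, chr19:47232618-47232917, minus strand: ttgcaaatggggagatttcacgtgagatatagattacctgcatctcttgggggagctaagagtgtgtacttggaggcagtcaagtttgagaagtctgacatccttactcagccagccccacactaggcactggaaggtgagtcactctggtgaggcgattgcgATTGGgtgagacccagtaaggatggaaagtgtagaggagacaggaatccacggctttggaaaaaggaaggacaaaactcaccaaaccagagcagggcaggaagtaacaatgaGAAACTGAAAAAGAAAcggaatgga
The PMAIP1 window held 4 GC boxes and none of the other motifs. The BBC3 window held 2 overlapping ISRE matches, the first 25 bases after the start, and 1 CCAAT box. An ISRE match was found in 3.57% of 35116 RefSeq promoters of this length, GAS in 7.66%, CRE in 1.85%, NF-kB in 11.3%, a CCAAT box in 34.6% and a GC box in 45.0%. Of the 9 members with a promoter in the table, BBC3 was the only one with an ISRE match, and none held a GAS, CRE or NF-kB match. These are matches of letters and do not show that a factor binds.

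Whether the transfections differed in their response was tested directly, as the difference of the log2 fold changes. Against Mock, the siNT response was smaller for PMAIP1 (difference -1.27 ± 0.15, SE, edgeR adjusted p = 4.1e-06), MCL1 (-0.68 ± 0.06, adjusted p = 3.2e-07), BBC3 (-0.60 ± 0.20, adjusted p = 0.027) and BAK1 (-0.50 ± 0.14, adjusted p = 0.012), and larger for BCL2L1 (0.58 ± 0.05, adjusted p = 5.3e-07). Thus 1 member was higher and 4 were lower, against 14.9% and 16% of all genes. The BBC3 call was lost with any of 7 libraries left out (adjusted p up to 0.088) and the BAK1 call without the first Mock replicate at 24 h (-0.39, adjusted p = 0.057), a library without which 3 members were called.

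The siELMO1 response differed from that of siNT in BAK1 (1.00 ± 0.14, edgeR adjusted p = 2.7e-05), PMAIP1 (0.86 ± 0.15, adjusted p = 0.00022) and MCL1 (0.52 ± 0.06, adjusted p = 4.6e-06), which rose more, and in BCL2L1 (-0.64 ± 0.05, adjusted p = 8e-08), which rose less. BCL2L11 fell more in siELMO1 (-0.55 ± 0.17, adjusted p = 0.016), though this call was lost without the third siNT replicate at 24 h (-0.39, adjusted p = 0.051). That makes 3 members higher and 2 lower, against 16.7% and 17.8% of all genes. Without the siELMO1 replicate that stood apart 8 members were called, BAX (0.28), BAD (0.44) and BBC3 (0.50) being added as higher. The starting levels of these genes differed between the transfections too, as the following comparisons show, so an unequal response is not the same as an unequal level at 24 h.

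Between siELMO1 and Mock the responses were closer. BAK1 rose more in siELMO1 (0.50 ± 0.14, edgeR adjusted p = 0.013), BAD fell less (0.54 ± 0.15, adjusted p = 0.013) and PMAIP1 rose less (-0.42 ± 0.15, adjusted p = 0.042). The PMAIP1 call was lost with any of 12 of the 18 libraries left out (adjusted p up to 0.12), among them the siELMO1 replicate that stood apart (-0.35, adjusted p = 0.094). These were 2 members higher and 1 lower, against 13.8% and 14.6% of all genes. For MCL1 the difference was -0.16 (95% interval -0.28 to -0.04, adjusted p = 0.057) and for BCL2L1 it was -0.06 (-0.17 to 0.05, adjusted p = 0.46), and the former was called without the third siELMO1 replicate at 24 h (-0.20, adjusted p = 0.029). With that library left out 5 members were called in all, BCL2L11 (-0.52) among them, and BCL2L11 was also called without the third siNT replicate at 24 h (-0.42, adjusted p = 0.035).

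Before poly(I:C), siNT cells were compared with Mock for the part of control siRNA alone. They held 1.79-fold more MCL1 and 1.90-fold more BAK1 (edgeR adjusted p = 6.7e-11 and 5.8e-07), 1.76-fold less BCL2L1 and 1.47-fold less BBC3 (adjusted p = 2.2e-11 and 0.0034). Thus 2 of 10 members were higher and 2 lower, no larger a share than the 27.6% and 24% of all genes. The changes of BAX (log2 fold change 0.03), BID (-0.09), BAD (0.18), PMAIP1 (-0.18), BCL2L11 (0.18) and BCL2 (-0.30) were not called. In fits of only these groups PMAIP1 was called, at -0.21 with the replicate as a block (edgeR adjusted p = 0.0024). BID was called in such a fit only without the block.

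The knockdown of ELMO1 was compared with siNT at 0 h. In siELMO1 4 members were higher and 5 lower, where 31.3% of all genes were higher and 31.3% lower, and BCL2 alone was not called (-0.73 ± 0.41, edgeR adjusted p = 0.13). BBC3 was 1.74-fold, BCL2L1 1.66-fold, BCL2L11 1.37-fold and BID 1.20-fold higher. BAD was 1.91-fold, PMAIP1 1.73-fold, MCL1 1.64-fold, BAK1 1.42-fold and BAX 1.27-fold lower. The largest adjusted p among these 9 was 0.0048, that of BID. Fitting only siELMO1 and siNT at 0 h, with the replicate as a block, BCL2 was called (-0.72, edgeR adjusted p = 0.043) and BID was not (0.26, adjusted p = 0.051). Without the replicate that stood apart the same 9 members were called in the same directions, with values such as 0.60 for BBC3, -0.67 for BAK1 and -1.08 for BAD.

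Against Mock at 0 h, 3 members were higher and 4 lower in siELMO1, where 27.9% of all genes were higher and 22.4% lower. PMAIP1 (log2 fold change -0.97), BAD (-0.76) and BAX (-0.31) were lower, and BCL2L11 (0.63) and BAK1 (0.42) were higher (edgeR adjusted p = 7e-07, 1.4e-05, 0.0027, 0.0002 and 0.0022). Without the replicate that stood apart BAK1 was at 0.25 (adjusted p = 0.016). MCL1 was higher by 0.12 ± 0.04 (adjusted p = 0.029) and BCL2 lower, at -1.03 ± 0.41 (adjusted p = 0.046). The MCL1 call was lost with any of 5 libraries left out (adjusted p up to 0.27), and the BCL2 call with any of the 9 libraries at 0 h left out (adjusted p up to 0.10). Fitting only siELMO1 and Mock at 0 h, with the replicate as a block, gave BCL2 at -1.07 (edgeR adjusted p = 0.0082) and MCL1 at 0.08 (adjusted p = 0.25). With each of the 2 other filters the BCL2 call was lost. BID (0.16) was called without the replicate that stood apart (0.24, adjusted p = 0.0053), BBC3 (0.25) without the third siELMO1 replicate at 0 h (0.40, adjusted p = 0.021) but at 0.04 without the one that stood apart, and BCL2L1 (-0.08) without the second Mock replicate at 0 h or the first at 24 h (adjusted p = 0.016 and 0.026). PMAIP1, BAD and BAX were thus below both controls in siELMO1 at 0 h and BCL2L11 above both, while MCL1 and BCL2L1 lay near Mock.

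**Figure D3:**
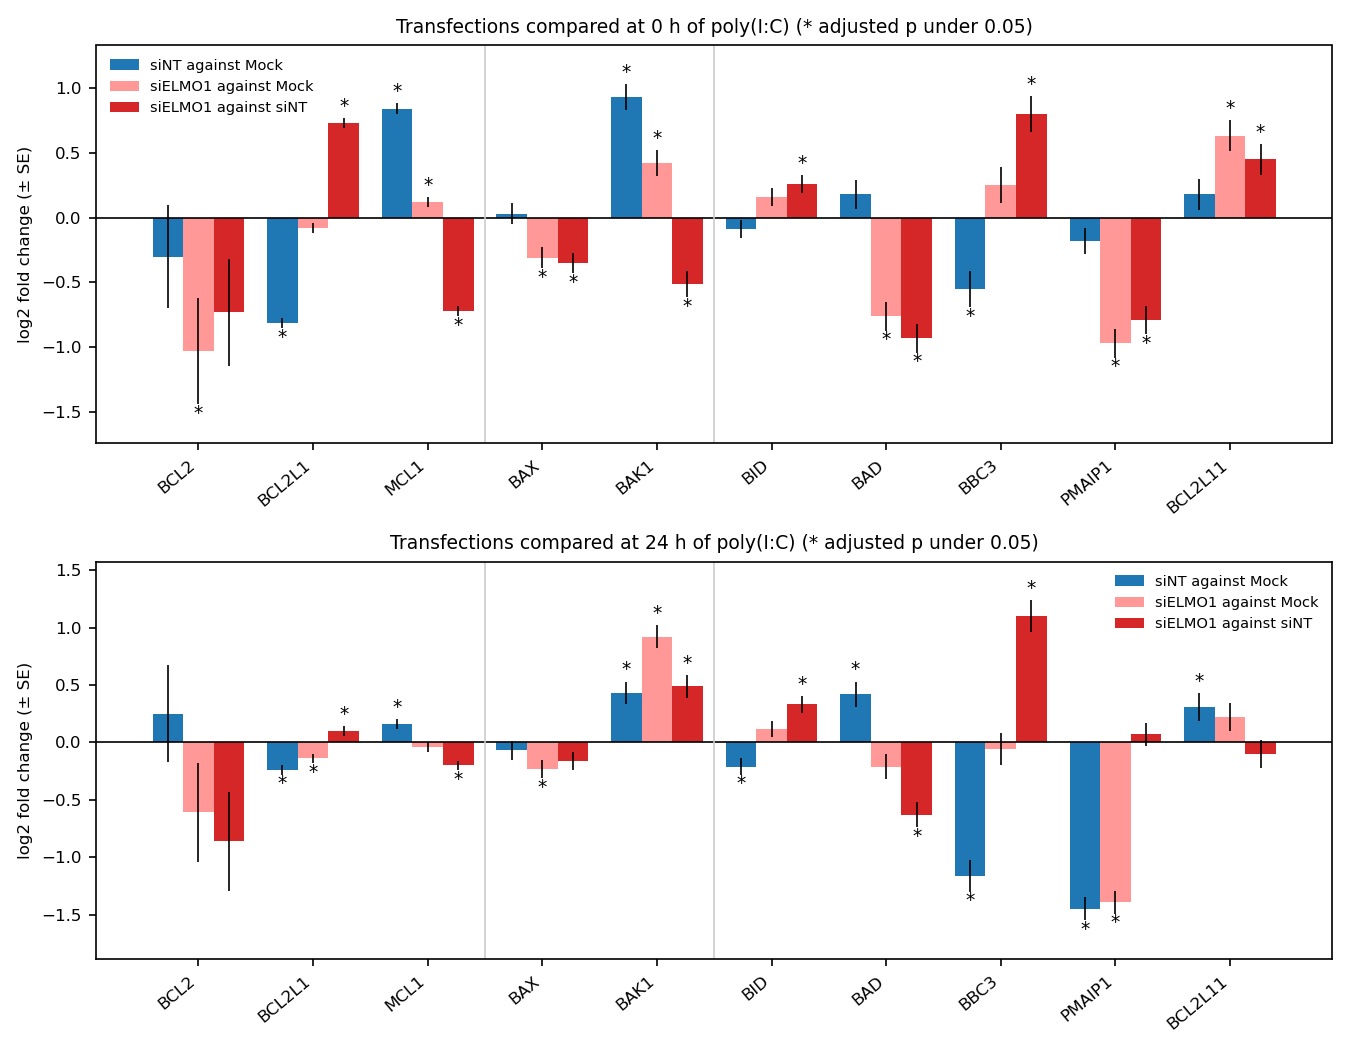
Log2 fold change of the 10 members between transfections at 0 h (top) and 24 h (bottom). Error bars are 1 SE, derived from the F statistic of edgeR, and stars mark an adjusted p under 0.05. The bars of MCL1 and BCL2L1 in siELMO1 against siNT shrink from -0.72 and 0.73 at 0 h to -0.20 and 0.10 at 24 h, and that of BAK1 turns from -0.51 to 0.49.

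After 24 h of poly(I:C), the called members with the largest differences between siELMO1 and siNT were pro-apoptotic, as are 7 of the 10 members. BBC3 was 2.14-fold (log2 fold change 1.10 ± 0.14, edgeR adjusted p = 4.1e-06), BAK1 1.41-fold (0.49 ± 0.10, adjusted p = 0.00046) and BID 1.26-fold higher (0.33 ± 0.07, adjusted p = 0.00079), and BAD was 1.55-fold lower (-0.63 ± 0.11, adjusted p = 0.00011). MCL1 was 1.15-fold lower (adjusted p = 0.00085) and BCL2L1 1.07-fold higher (adjusted p = 0.045), a call that was lost with any of 9 libraries left out (adjusted p up to 0.15). PMAIP1 differed by 0.07 (95% interval -0.13 to 0.27, adjusted p = 0.61). In all 4 members were higher and 2 lower, against 26% and 26.5% of all genes. BAX (-0.16) was called without the siELMO1 replicate at 0 h that stood apart (adjusted p = 0.048), and BCL2 (-0.86) without the third siNT or the second siELMO1 replicate at 24 h (-1.14 and -1.50, adjusted p = 0.04 and 0.01). Fitting only siELMO1 and siNT at 24 h, with the replicate as a block, BAX (-0.16) and BCL2 (-0.89) were called (edgeR adjusted p = 0.023 and 0.041). The study reports massive cell death at this time in siNT cells and less in Mock and siELMO1 cells. The part of cell death in the comparisons at 24 h was not tested.

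Set against Mock at 24 h, siELMO1 had 1 member higher and 3 lower, where 21.6% of all genes were higher and 22% lower. BAK1 was 1.89-fold higher (edgeR adjusted p = 8.7e-07), PMAIP1 2.62-fold lower (adjusted p = 1.1e-08), BAX 1.17-fold lower (adjusted p = 0.024) and BCL2L1 1.10-fold lower (adjusted p = 0.0062). The BAX call was lost without the first or the third Mock replicate or the first siELMO1 replicate at 24 h (adjusted p = 0.061, 0.089 and 0.14). BBC3 differed by -0.06 (95% interval -0.33 to 0.20) and MCL1 by -0.04 (-0.13 to 0.04), neither of which was called. BCL2 (-0.61) was called without the second siELMO1 replicate (-1.26, adjusted p = 0.034) and BAD (-0.21) without the second Mock replicate (-0.31, adjusted p = 0.039) at that time.

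In siNT against Mock at 24 h, 4 members were higher and 4 lower, against 25.2% and 24.9% of all genes. PMAIP1 was 2.74-fold and BBC3 2.23-fold lower (edgeR adjusted p = 5.9e-09 and 2.4e-06), BCL2L1 1.18-fold and BID 1.16-fold lower. BAK1 was 1.35-fold, BAD 1.34-fold, BCL2L11 1.24-fold and MCL1 1.12-fold higher. Same-numbered replicates of these 2 groups deviated together in the data, but the labels do not pair them. With the replicate as a block in the 2 groups the BCL2L11 call was lost (0.30, adjusted p = 0.059). It was also lost with any of 5 libraries left out (adjusted p up to 0.26). The BID call was lost without the third Mock or the first or the second siNT replicate at 24 h (adjusted p = 0.058, 0.078 and 0.076).

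Summed by class, anti-apoptotic transcripts amounted to 324 ± 6.30 TPM (SD, n = 3) in Mock, 342 ± 2.00 TPM in siNT and 312 ± 8.81 TPM in siELMO1 at 0 h, and to 564 ± 20.6, 570 ± 14.6 and 538 ± 22.7 TPM at 24 h. Pro-apoptotic transcripts amounted to 528 ± 12.5, 497 ± 10.3 and 405 ± 64.5 TPM at 0 h, and to 1194 ± 99.2, 702 ± 69.4 and 765 ± 83.0 TPM at 24 h. The anti-apoptotic sums differed little in size within each time. At 0 h, however, the siNT libraries (340 to 343 TPM) lay above every Mock and siELMO1 library (up to 332 and 322 TPM). The pro-apoptotic sum of each Mock library at 24 h exceeded that of every other library.

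**Figure D4:**
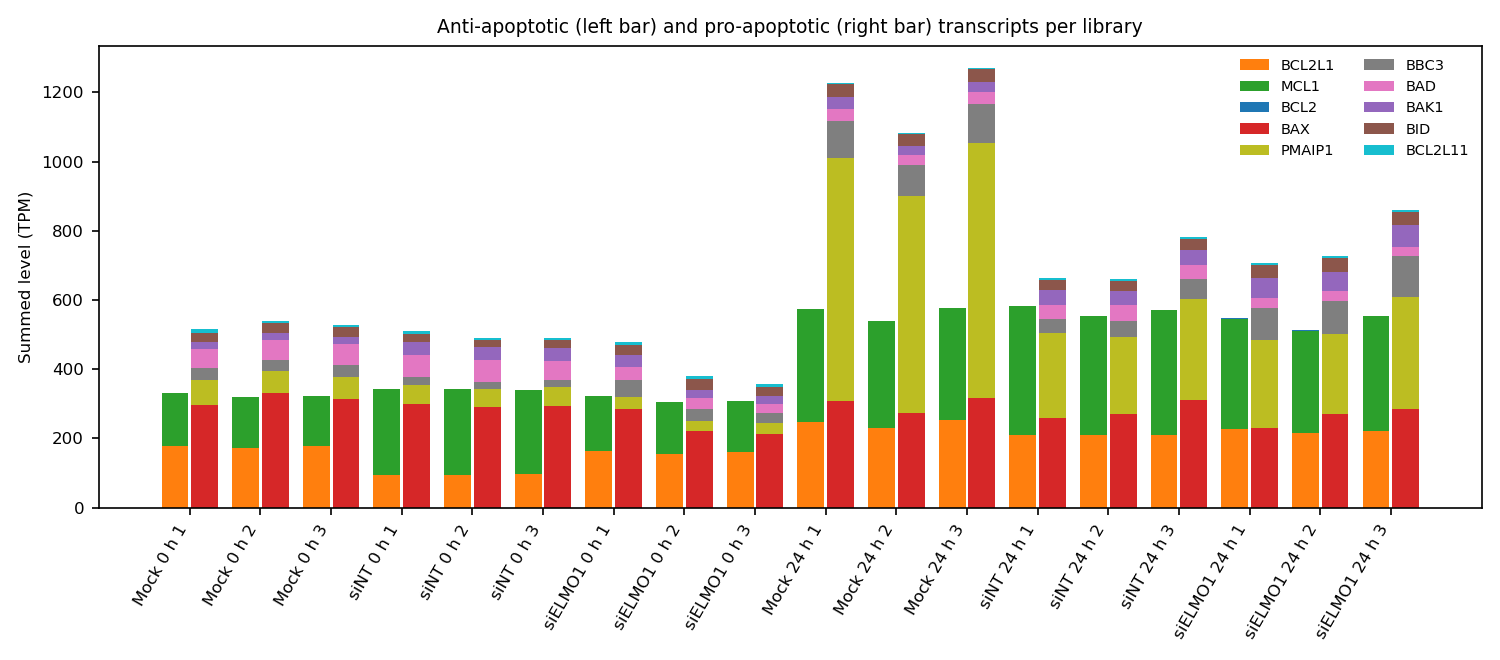
Stacked levels in TPM of the anti-apoptotic (left bar) and pro-apoptotic (right bar) members in each of the 18 libraries. The pro-apoptotic bars of Mock at 24 h reach 1083 to 1272 TPM, of which PMAIP1 makes up 57.3% to 58.1%.

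The log2 ratio of the anti-apoptotic to the pro-apoptotic sum is given as a description, with no test, because it is a score over chosen genes. It was -0.64, -0.76 and -0.71 in Mock, -0.57, -0.52 and -0.53 in siNT, and -0.57, -0.31 and -0.21 in siELMO1 at 0 h. At 24 h it was -1.10, -1.003 and -1.14 in Mock, -0.19, -0.25 and -0.46 in siNT, and -0.37, -0.51 and -0.63 in siELMO1. Pro-apoptotic transcripts exceeded anti-apoptotic ones in all 18 libraries on this scale, most in Mock at 24 h, and siNT and siELMO1 overlapped at 24 h. At 0 h they overlapped through the siELMO1 replicate that stood apart, and the other two siELMO1 libraries lay above all siNT libraries. The ratio depends on single genes, since with BAX left out it was above 0 in 5 of the 6 groups, and from CPM without regard to length it was above 0 in all 6.

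The makeup of each class also shifted. MCL1 made up 44.2% to 46.2% of the anti-apoptotic sum in Mock at 0 h and 71.6% to 72.8% in siNT, and BCL2L1 nearly all of the rest. PMAIP1 rose from 11.8% to 13.6% of the pro-apoptotic sum in Mock at 0 h to 57.3% to 58.1% at 24 h, and reached 33.8% to 37.5% in siNT and 32.1% to 37.8% in siELMO1. BAX, at 57.8% to 61.4% of the sum in all 9 libraries at 0 h, fell to 24.8% to 25.2% in Mock at 24 h, although its own level was not called as changed.

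Transcript estimates bear on what these levels stand for. A retained-intron model, MCL1-206, took 78.0% to 89.0% of the MCL1 level in the 18 libraries, and the MANE Select transcript MCL1-202 took 4.18% to 17.5%, so the MCL1 level rests mainly on a model with no coding sequence. For BAX a coding transcript, BAX-201, took 53.1% to 72.2%, whereas the MANE Select transcript is BAX-202. Of BCL2L1, the transcripts BCL2L1-201 and BCL2L1-210 share a coding length of 699 bases, and the latter, picked after its values were seen, took 24.6% to 33.8% of the level in siELMO1 at 24 h against 8.84% to 18.8% in Mock and 9.16% to 15.9% in siNT. At 0 h the groups overlapped in this share, with 21.2% to 33.9% in siELMO1, 23.8% to 26.6% in Mock and 17.1% to 26.8% in siNT. BCL2L1-202 and BCL2L1-205, with a shorter coding length of 510 bases, took at most 6.11% and 4.71% of the BCL2L1 level. BCL2L1-215, annotated for nonsense-mediated decay, took 3.84% to 15.2%. The class sums count all these forms as anti-apoptotic. The MANE Select transcript BCL2L11-204 took 31.5% to 89.8% of the BCL2L11 level. Several members share exonic sequence with a gene on the opposite strand, BAD with GPR137, BCL2L11 with MIR4435-2HG, BCL2L1 with ABALON and MCL1 with ADAMTSL4, and the library kit was stranded but the strand setting of the counting is not given in the sources used here.

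Other genes of the pathway were read from 3 lists. Of 13 further BCL2 family genes 8 were tested, and in siELMO1 against siNT at 24 h 4 were higher and 3 lower, where 26% of all genes were higher and 26.5% lower. Among them BMF, a BH3-only gene, was higher by 1.77 ± 0.26 on the log2 scale (10.4 to 19.6 CPM in siELMO1 against 3.36 to 4.89 CPM in siNT, edgeR adjusted p = 1.9e-05). BCL2A1, an anti-apoptotic target of NF-kB, was lower, at -0.93 ± 0.18 (adjusted p = 0.00035), and BNIP3, a hypoxia-inducible gene, was lower, at -0.67 ± 0.06. Against Mock at 24 h, siELMO1 was at 1.41 for BMF, -1.50 for BCL2A1 and 0.13 for BNIP3, the last not called (adjusted p = 0.12). The siNT values against Mock were -0.35, -0.57 and 0.79, the first not called (adjusted p = 0.27). BCL2A1 rose with poly(I:C) by 3.54, 3.72 and 4.38 on the log2 scale in Mock, siNT and siELMO1, and no difference between these responses was called.

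Of 16 genes of mitochondrial apoptosis, 5 were higher and 5 lower in that comparison, near the 26% and 26.5% of all genes. BIRC2, an inhibitor of apoptosis protein, was higher by 0.56 ± 0.05 (edgeR adjusted p = 6.2e-08), and by 0.37 at 0 h (adjusted p = 4.5e-06). Against Mock at 24 h BIRC2 was at 0.09 in siELMO1, not called (adjusted p = 0.15), and at -0.47 in siNT (adjusted p = 6e-07). Against Mock at 0 h it was at 0.29 in siELMO1 (adjusted p = 8.6e-05) and at -0.07 in siNT, not called (adjusted p = 0.23).

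Of 15 tested regulators of the family, from 16 listed, 5 were higher and 3 lower, against 26% and 26.5% of all genes. AKT1, the kinase that phosphorylates BAD, was higher by 0.49 ± 0.05, and DDIT3, a stress-induced factor, lower, at -0.77 ± 0.13 (edgeR adjusted p = 1.9e-07 and 0.00011). Against Mock at 24 h AKT1 was at 0.07 in siELMO1, not called (adjusted p = 0.26), and at -0.42 in siNT (adjusted p = 1.3e-06). DDIT3 was at -2.25 and -1.48 against Mock in siELMO1 and siNT (adjusted p = 1e-09 and 8.1e-08). The median log2 fold change of the 3 lists was 0.03, 0.01 and 0.06, beside -0.01 over all genes tested.

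The genes whose pattern over the 18 libraries was most like that of the widest-ranging member of each class were also listed. For MCL1 these were LINC02381, CISD1 and SBNO2, with a root mean square difference of centred log2 CPM of 0.15, 0.16 and 0.16. For PMAIP1 they were SAMD9, NAV2-AS6 and IDO1, with 0.27, 0.32 and 0.34. SAMD9 and IDO1 are known interferon-induced genes.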

How the data were processed

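The 18 RNA libraries (KAPA Stranded mRNA-Seq) were sequenced as paired ends. Per the study's methods, the authors aligned reads to GRCh38 with STAR, quantified GENCODE v44 with StringTie and derived the deposited gene and transcript tables, which hold estimated counts, from coverage with the prepDE script. Tool versions are not given in the sources used here. The 10 members and the lists of other genes were chosen with earlier results of these data known. The gene counts, whole numbers as deposited, were tested with edgeR 4.0.16 (quasi-likelihood, TMM scaling, 1 fit over all 18 libraries) after the filter of the study, 100 or more counts in total and 1 CPM or more in the highest library, which kept 15167 genes. A call means an adjusted p (Benjamini-Hochberg over all genes) under 0.05. Summed per library, the coverage-derived counts came to between 40.4 and 73.9 M. Each sum exceeded the highest number of paired-end reads that the study reports for a sample. The sums are therefore not numbers of independent reads and do not by themselves give the precision. Intervals include replicate error and a counting error taken from these counts, and the effect of the excess on them was not tested. CPM used TMM-scaled totals. TPM was computed from transcript counts and GENCODE lengths, 252835 of 252894 transcripts having one. Named genes besides the members and ELMO1 were, in each list, up to 3 called genes with the largest absolute log2 fold change in siELMO1 against siNT at 24 h, and for likeness the 3 genes with the smallest root mean square difference. Marker lists served to check the cell type. Same-numbered replicates deviated together, with r above 0.1 in all 3 pairs, in 1 of 15 pairs of groups, Mock and siNT at 24 h (r = 0.145 to 0.231). This comes from the data, not from the labels. Since siELMO1 at 0 h and siNT at 24 h came close, with r of 0.1 to 0.136, the rule does not establish a pairing. Alternatives were median-of-ratios scaling, unscaled totals, 2 other filters, DESeq2 1.42.0, limma-voom 3.58.1, the replicate block, fits of the groups compared only, and each library left out. The tests were tried on simulated data. No protein table was used, and the MCL1 promoter was not analysed here. Some genes that the rule names are not reported here.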

Additional observations from a re-analysis of the deposited data

Results flagged for a closer look

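In 13 tests of a difference between poly(I:C) responses a member passed the threshold of edgeR's quasi-likelihood test, and each is given as the difference of log2 fold changes. The siNT response exceeded the Mock response by 0.58 for BCL2L1 and differed from it by -0.68 for MCL1, -0.50 for BAK1, -0.60 for BBC3 and -1.27 for PMAIP1. The siELMO1 response differed from the Mock response by 0.50 for BAK1, 0.54 for BAD and -0.42 for PMAIP1. The siELMO1 response differed from the siNT response by -0.64 for BCL2L1, 0.52 for MCL1, 1.00 for BAK1, 0.86 for PMAIP1 and -0.55 for BCL2L11. Called were 5, 3 and 5 of 10 members in siNT against Mock, siELMO1 against Mock and siELMO1 against siNT. Of all 15167 genes tested, 4695, 4299 and 5233 were called in the same order. The comparisons share libraries, and the causes of the differences were not tested.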

How the results depend on the processing

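Calls were common among all genes. Of 15167 genes tested, 6610 to 9502 were called in each comparison between groups, and 4299 to 5233 in each difference between responses. Of 120 pairs of member and comparison 74 were called. Of these, 61 were called in each alternative run and with any single library left out, 13 were lost in at least 1 setting, 19 further pairs were called in at least 1 setting, and no call changed direction. With 1 library left out, the number of members called ran from 4 to 4 for siNT against Mock at 0 h, 5 to 7 for siELMO1 against Mock, 9 to 9 for siELMO1 against siNT, 6 to 8, 3 to 5 and 5 to 7 for the same comparisons at 24 h, and 8 to 9, 6 to 7 and 7 to 8 for the responses of Mock, siNT and siELMO1. For the differences between responses it ran from 3 to 5 for siNT against Mock, 2 to 5 for siELMO1 against Mock and 4 to 8 for siELMO1 against siNT. With the replicate block over all libraries, 5 in place of 3 members differed in response between siELMO1 and Mock. With the block in Mock and siNT at 24 h, whose same-numbered replicates deviated together, 7 in place of 8 members were called. By the labels, replicates of different groups share only a number.

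The log2 ratio of the class sums depended on its construction. In Mock, siNT and siELMO1 it was -1.57, -2.39 and -1.34 at 0 h and -2.29, -1.74 and -1.78 at 24 h without MCL1. Without BAX it was 0.60, 0.75 and 0.92 at 0 h and -0.66, 0.44 and 0.10 at 24 h. From CPM without length it was 0.63, 0.92 and 0.90 at 0 h and 0.07, 0.97 and 0.71 at 24 h. BCL2 lay between 0.379 and 2.31 CPM, and its replicates at 24 h spread widely. The causes of these changes were not tested.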
